A study of Mus musculus with 2 samples.

Results

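The intrinsic and extrinsic cell-death machinery of the mouse P5424 T-cell line was described from the probes of 50 genes. They cover the BCL2 family, a set of caspases, the apoptosome and the proteins released from mitochondria. The inhibitors of apoptosis (IAPs) and proteins of the death-receptor complex are included too. Members were taken as the non-control probes whose gene name in the array files is one of these 50 symbols. This gave 48 of the 34844 gene names on the array, through 72 probes with 1 spot each. Bcl2a1a and Bcl2a1b had no probe under their own name. Other executioner caspases were not analysed here.

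P5424 is a line of immature T-lineage cells, given in the labels as carrying knockouts of Rag2, a recombinase subunit, and of P53 (gene symbol Trp53), a tumour suppressor. Both samples are of this line, grown without treatment in RPMI1640 medium, which held 2-mercaptoethanol and fetal bovine serum. They thus form 1 group and share every allele and agent that the labels give. Total RNA was labelled with Cy3 and hybridised to 1 one-colour Agilent array per sample, called replicate 1 and replicate 2 as in the titles. The line is 1 genotype without a control line, so no test between groups could be made. The labels leave unsaid whether the cultures were grown apart, and the SDs below may measure technical spread alone.

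Mitochondrial apoptosis is controlled by branches of the BCL2 family that oppose each other. Pro-survival proteins hold the effectors BAX and BAK in check, BH3-only proteins neutralise the pro-survival proteins or activate the effectors, and active effectors open the outer mitochondrial membrane. Released cytochrome c then assembles with APAF1 to activate caspase-9, released SMAC and HTRA2 bind IAPs, and death receptors act through FADD and caspase-8. In thymocytes this balance is known to set how many cells survive selection, and several BH3-only genes are known p53 targets.

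The promoters below were picked because these genes differed in detection and hold few or many CpG upstream of their start. Apaf1 is not a caspase gene. Among caspase genes not printed the order was mixed: detected Casp8 holds 5 CpG and undetected Casp14 holds 8. Casp1 and Casp12 were detected on neither array, and Casp9 and Apaf1 on both. Each sequence is the 250 bases before the transcription start, from RefSeq promoters of build GRCm38.p6, written 5′ to 3′ on the gene's strand with each CG dinucleotide in capitals. They lie at chr9:5298267-5298516 (plus strand) for Casp1, chr9:5345226-5345475 (plus) for Casp12, chr4:141793362-141793611 (plus) for Casp9 and chr10:91082744-91082993 (minus) for Apaf1.
Casp1: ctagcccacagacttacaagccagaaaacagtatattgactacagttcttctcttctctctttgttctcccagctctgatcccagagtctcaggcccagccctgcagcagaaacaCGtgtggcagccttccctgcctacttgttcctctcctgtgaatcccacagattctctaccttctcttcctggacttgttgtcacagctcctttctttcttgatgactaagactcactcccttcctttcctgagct
Casp12: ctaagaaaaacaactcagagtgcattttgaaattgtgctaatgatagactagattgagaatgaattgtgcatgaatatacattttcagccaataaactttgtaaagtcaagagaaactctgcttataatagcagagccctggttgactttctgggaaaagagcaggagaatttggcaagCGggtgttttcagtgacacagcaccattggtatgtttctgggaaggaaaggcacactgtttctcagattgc
Casp9: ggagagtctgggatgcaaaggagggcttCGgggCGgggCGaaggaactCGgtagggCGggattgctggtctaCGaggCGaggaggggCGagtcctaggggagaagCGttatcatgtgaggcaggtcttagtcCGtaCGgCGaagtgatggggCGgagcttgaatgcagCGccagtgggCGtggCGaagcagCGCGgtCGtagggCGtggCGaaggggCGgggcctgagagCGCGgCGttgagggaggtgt
Apaf1: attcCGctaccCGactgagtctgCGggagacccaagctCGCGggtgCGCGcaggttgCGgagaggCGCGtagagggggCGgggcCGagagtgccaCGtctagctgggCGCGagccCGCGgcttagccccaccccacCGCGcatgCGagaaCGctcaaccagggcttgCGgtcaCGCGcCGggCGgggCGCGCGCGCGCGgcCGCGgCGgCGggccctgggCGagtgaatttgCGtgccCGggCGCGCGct

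A second set of sequences is shown because these probes had some of the members' larger differences between the arrays, either for the gene (Bcl2, Bcl2l11, Bik, Birc3) or against a downstream probe of the same transcript (Bcl2l1, Bad, Diablo). They are 60-base array probes as given in the files, written 5′ to 3′ with every G and C in capitals. On build mm9 they lie at chr1:108608970-108609029 (minus) for Bcl2, chr2:127972893-127983988 (plus) for Bcl2l11, chr15:83374048-83374107 (plus) for Bik, chr9:7854409-7854468 (minus) for Birc3, chr2:152655185-152655244 (minus) for Bcl2l1, chr19:7016918-7017403 (plus) for Bad and chr5:123973293-123973352 (minus) for Diablo. The Bcl2l11 and Bad positions span more genome than the length of the probe. Exon boundaries and the gene part under each probe were not analysed here.
Bcl2: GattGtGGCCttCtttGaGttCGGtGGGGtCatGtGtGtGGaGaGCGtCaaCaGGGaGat
Bcl2l11: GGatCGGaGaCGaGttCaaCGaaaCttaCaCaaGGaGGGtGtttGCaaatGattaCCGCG
Bik: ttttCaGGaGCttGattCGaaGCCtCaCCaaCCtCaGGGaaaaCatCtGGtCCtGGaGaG
Birc3: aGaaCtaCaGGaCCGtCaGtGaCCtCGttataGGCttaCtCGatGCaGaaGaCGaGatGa
Bcl2l1: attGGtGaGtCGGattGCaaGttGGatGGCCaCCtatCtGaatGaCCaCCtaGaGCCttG
Bad: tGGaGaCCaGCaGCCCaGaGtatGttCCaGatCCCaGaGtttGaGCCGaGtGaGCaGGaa
Diablo: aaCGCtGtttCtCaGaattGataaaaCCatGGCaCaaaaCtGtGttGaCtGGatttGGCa

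Detection means that the scanner software set a probe well above background on each of the 2 arrays, and for a gene that any of its probes was. The 2 arrays had 42.5% and 41.2% of 55681 probes well above background, no saturated spot, and a Pearson r of 0.994 across the 22321 probes detected on both, where probes are not independent replicates. All 10 T-lineage markers checked were detected. Of the markers of other cell types, 1 of 5 B-cell, 3 of 5 myeloid, 2 of 4 erythroid and 2 of 6 stromal genes were detected. Among the detected ones were Itgam (6292 and 6868 intensity units), Pdgfrb (1573 and 1557), Pecam1 (443 and 447) and Gata1 (217 and 211), and among those on neither array were Ms4a1, Lyz2, Hba-a1 and Col1a1. Whether other cells contributed RNA to the values below was not tested, and fewer cells of a type cannot be told apart from less RNA per cell. Rag2 (2132 and 2086) and Trp53 (746 and 996) both gave detected signals. The deleted parts are not given in the labels, so these probes check nothing about the genotype.

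Most of the death machinery was detected. Of 48 members, 39 were detected on both arrays (81.3%), 9 on neither and 0 on 1 array alone. Among protein-coding genes on the array the share was 54.0%, and among all gene names 46.1%. The number of probes per gene bears on detection, so members were also counted by it. Of the 32 members with 1 probe, 25 were detected (78.1%, protein-coding genes 47.6%), and of the 16 with 2 or more, 14 were detected (87.5%, protein-coding genes 66.9%).

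The classes differed in how many members were found. All 3 BCL2-like genes, 4 of 4 BNIP genes and 6 of 6 apoptosome and mitochondrial release genes were detected. So were 5 of 5 IAPs and 5 of 5 genes of the death-receptor complex. Of the core family, 4 of 6 pro-survival genes, 2 of 3 effectors and 6 of 8 BH3-only genes were detected. The caspases were the class with the lowest share, 4 of 8, near the 54.0% of protein-coding genes. Of the 7 caspases with 1 probe, 4 were detected (57.1%), where protein-coding genes with 1 probe stood at 47.6%. These are counts over few genes and are given as a description.

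**Figure D1:**
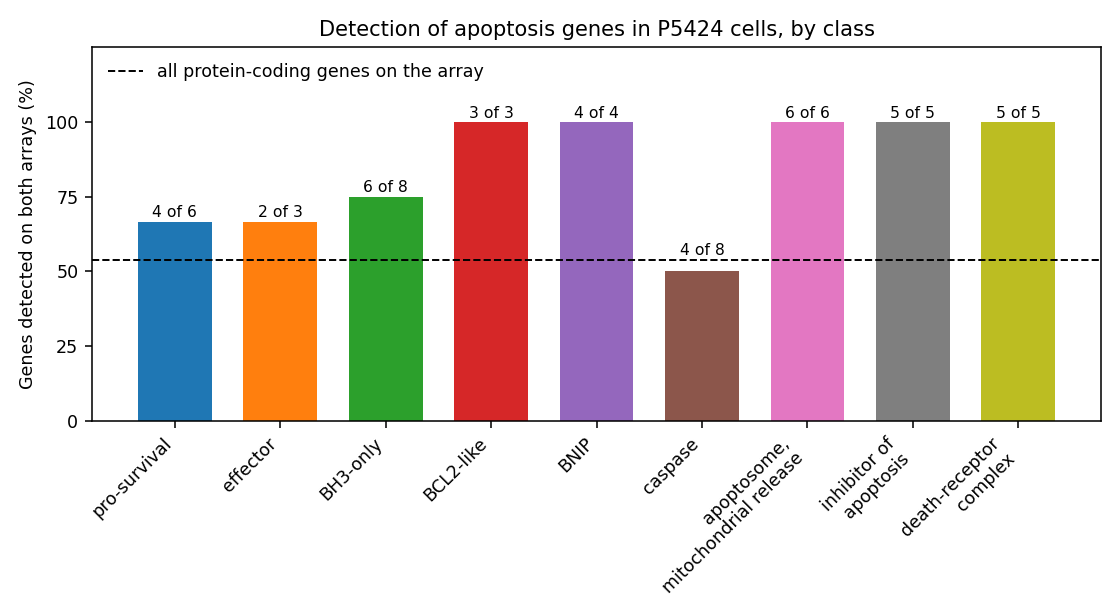
Bars give the percent of genes with a probe that were detected on both arrays (y axis) for each class of member (x axis), with the counts above the bars; the dashed line is the 54.0% of all protein-coding genes. Caspases are at 4 of 8, and 5 classes have every member detected.

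A gene's level is given as its log2 signal minus that of the 75th percentile of all probes of its array, which lay at 324 intensity units on the first array and 299 on the second, as mean ± SD over both arrays (n = 2). The probe of a gene with the highest mean stands for the gene. Signals of different probes depend on their sequence, so no gene is placed above another.

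Among pro-survival genes, Bcl2l1, which encodes BCL-XL, gave signals of 24414 units (replicate 1) and 22222 units (replicate 2), a level of 6.23 ± 0.01. Mcl1, whose short-lived product is required for thymocyte survival, gave 22989 and 21074 (6.14 ± 0.0051). With these probes and this scaling, both genes had nearly the same relative level on each array. For Bcl2l1 this rests on the probe: another detected probe differed by 1.01, and the mean over both probes differed by 0.50. Scaled to the median of all probes, the differences were -0.25 for Bcl2l1 and -0.24 for Mcl1. Bcl2, the founding member, gave 144 and 196 (-0.89 ± 0.40), a signal below the array's 75th percentile and higher on replicate 2. The Bcl2 probe at base 1838 lists a single transcript variant among its accessions, and the file holds at most 4 accessions per probe.

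The Bcl2a1 genes encode A1, a pro-survival protein of blood cells, and lie in a cluster of near-identical copies. The probe named Bcl2a1d (chr9:88618165-88618224 of mm9, minus) gave 63.9 and 59.2 intensity units (-2.34 ± 0.0058). It lists RefSeq accessions of Bcl2a1a, Bcl2a1b and Bcl2a1d, 3 genes, so the signal cannot be assigned to one of them. On replicate 2 it lay below the highest of 308 negative control spots, which reached 101 units against a median of 7.50. Bcl2l2, which encodes BCL-W, and Bcl2l10, known from oocytes, were detected on neither array. Bcl2l2 gave 6.44 and 7.40 units from its first probe, and Bcl2l10 gave 6.13 and 6.77, near the control medians of 6.55 and 7.50.

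Of the effectors, Bax gave 5321 and 5208 units (4.08 ± 0.06) and Bak1, which encodes BAK, gave 10411 and 8585 (4.93 ± 0.11). Bok, the other multidomain member, gave 6.33 and 7.21 and was detected on neither array. Among probes that met the detection criterion, the dimmest gave 28.9 units on the first array and 31.1 on the second, so for Bok and the other undetected members these values are an upper bound and no level is given.

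Of the 8 BH3-only genes, 6 were detected. Bad, a sensitizer regulated by phosphorylation, gave 8717 and 7788 units (4.73 ± 0.03). Bid, the protein that caspase-8 cleaves to link death receptors to mitochondria, gave 7528 and 6229 (4.46 ± 0.11). Bmf, a sensitizer known for its tie to the cytoskeleton, gave 807 and 753 (1.32 ± 0.01). With these probes and this scaling, the 3 genes differed by no more than 0.16 on the log2 scale between the arrays. Scaled to the median of all probes, the differences were -0.27 for Bad and -0.38 for Bid, and another detected Bad probe, described further on, differed by 0.58.

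The other 3 detected BH3-only genes were all higher on replicate 2. Bcl2l11, which encodes BIM and is known for its role in thymocyte negative selection, gave 143 and 212 units (-0.84 ± 0.48). Bbc3, the p53 target that encodes PUMA, gave 495 and 758 (0.98 ± 0.52). Bik gave 439 and 567 (0.68 ± 0.34). Pmaip1, the p53 target that encodes NOXA, gave 6.94 and 8.28 and was detected on neither array, as was Hrk, a BH3-only gene known from neurons, at 6.41 and 7.22. Bbc3 and Pmaip1, both known p53 targets, thus lay on different sides of the detection limit.

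All BCL2-like members were detected. Bcl2l12 gave 1159 and 1002 units (1.79 ± 0.06), Bcl2l13, a mitochondrial protein linked to mitophagy, 2433 and 2003 (2.83 ± 0.11), and Bcl2l14 373 and 396 (0.31 ± 0.14). The Bcl2l13 probe (chr6:120842801-120842860 of mm9, plus) and the Bid probe (chr6:120843464-120843523, minus) lie 603 bases apart on opposite strands, and both were detected.

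The BNIP genes encode partners of BCL2 and of viral homologues. Bnip1, a vesicle-trafficking protein, gave 1475 and 1421 units (2.22 ± 0.05), and Bnip2 gave 13551 and 11932 (5.35 ± 0.05). Bnip3 and Bnip3l, the mitophagy receptors BNIP3 and NIX, gave 2677 and 2947 (3.17 ± 0.18) and 12211 and 12274 (5.30 ± 0.09). Not every probe agreed: 1 of 3 Bnip2 probes and 2 of 3 Bnip3 probes were detected, so 2 of the 4 genes were detected by all their probes.

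The detected caspases were 3 initiators and 1 executioner. Casp2, an initiator known for its response to faulty mitosis, gave 17989 and 15505 units (5.75 ± 0.07). Casp8, the death-receptor initiator, gave 841 and 926 (1.504 ± 0.18), and Casp9, the apoptosome initiator, gave 1704 and 1449 (2.34 ± 0.08). Casp6, an executioner, gave 3832 and 4038 (3.66 ± 0.14). With this scaling, none of the 4 differed between the arrays by more than 0.26 on the log2 scale. Scaled to the median of all probes, the differences were -0.32 for Casp2, 0.03 for Casp8, -0.34 for Casp9 and -0.03 for Casp6.

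The 4 undetected caspases were the inflammatory group and the skin caspase. Casp1, which matures interleukin-1 beta, gave 6.66 and 7.70 units. Casp4, the sensor of cytosolic lipopolysaccharide also called caspase-11, gave 10.3 and 17.5 from a probe that shares 55 bases with its other probe. Casp12 gave 8.49 and 12.4, and Casp14, which acts in keratinocytes, gave 7.42 and 13.0. With the software's weaker criterion, a positive and significant signal, Casp4 and Casp12 passed on both arrays and Casp1 and Casp14 did not.

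**Figure D2:**
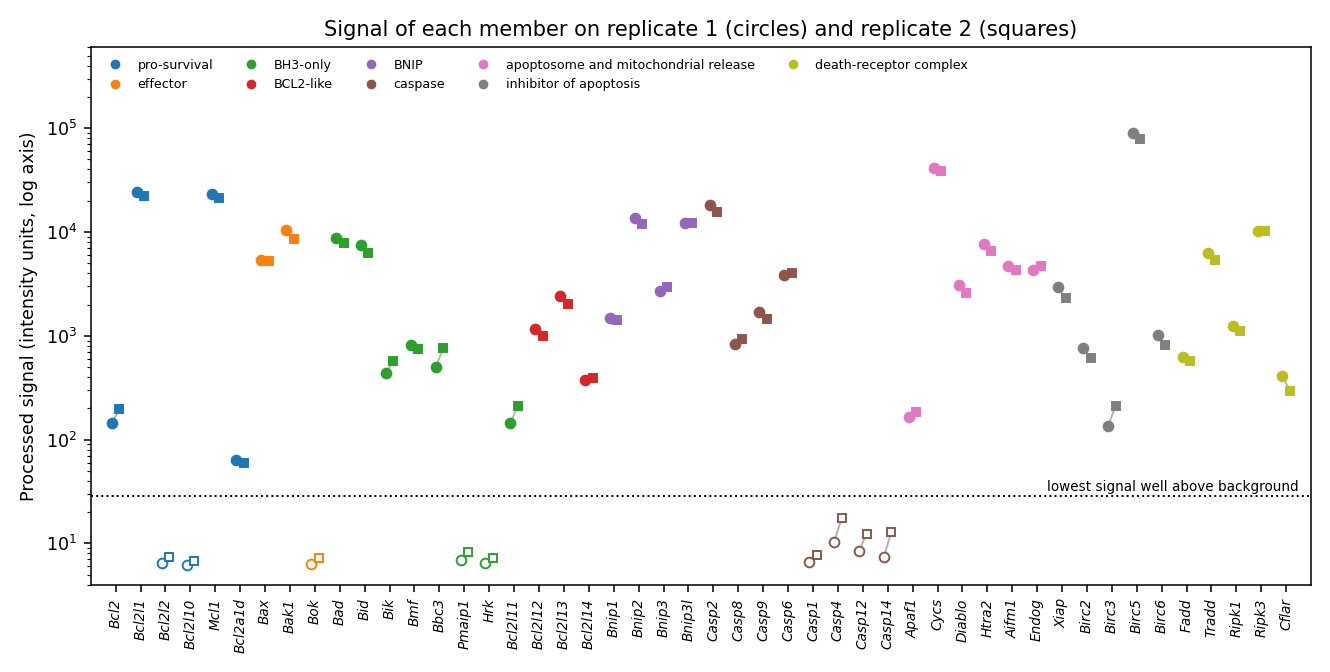
Processed signal in intensity units (log y axis) of the 48 members with a probe (x axis, coloured by class), with replicate 1 as circles and replicate 2 as squares; open symbols are not well above background and the dotted line is the lowest detected signal of replicate 1, 28.9 units. The 9 open pairs lie between 6.13 and 17.5 units, and signals of different genes come from different probes and have no order.

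All members of the apoptosome and release group were detected. Apaf1, the scaffold that assembles with cytochrome c, gave 166 and 183 units (-0.83 ± 0.18). Cycs, somatic cytochrome c, gave 41600 and 38455 (7.01 ± 0.0034). Diablo, which encodes the IAP antagonist SMAC, gave 3116 and 2611 (3.20 ± 0.10), and Htra2, a protease that also binds IAPs, gave 7585 and 6509 (4.50 ± 0.07). Aifm1, apoptosis-inducing factor, gave 4663 and 4285 (3.84 ± 0.0024), and Endog, a mitochondrial nuclease, gave 4281 and 4727 (3.85 ± 0.18). With these probes and this scaling, Apaf1 was the one gene of this group with a mean below the 75th percentile of the arrays. Another detected Diablo probe, at base 132, had a mean level of -0.74. Relative to the 75th percentile of detected probes, Diablo itself was at -0.32.

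All 5 IAP genes were detected, and 4 of them had a lower relative level on replicate 2, although for Birc5 the sign turned under some alternatives (-0.27 to 0.06). Xiap, the direct caspase inhibitor, gave 2964 and 2288 units (3.07 ± 0.18). Birc2, which encodes cIAP1, gave 769 and 609 (1.14 ± 0.15), and Birc6, a giant ubiquitin ligase, gave 1018 and 812 (1.55 ± 0.15). Birc3, which encodes cIAP2 and is a known NF-kappaB target, went the other way, at 136 and 211 (-0.88 ± 0.53). Birc2 and Birc3 are neighbouring paralogues on chromosome 9 and had opposite differences, -0.22 and 0.75, with the same signs under every alternative run. The size for Birc3 rests on the probe, since another detected probe of this gene differed by 0.25.

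Birc5 encodes survivin, which acts in chromosome segregation and is abundant in dividing cells. Its 3 probes were all detected. The probe at base 3336, whose values stand for the gene, gave 88820 and 79343 units (8.08 ± 0.03). A probe at base 269 with the accession of one transcript variant gave 11440 and 12036, and a probe at base 415 with the accession of another gave 2309 and 2196. The probe at base 3336 carries the same accession as the one at base 415. The proportions of the variants cannot be read from these signals, since each is a different probe.

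The genes of the death-receptor complex were all detected. Fadd, the adaptor that recruits caspase-8, gave 620 and 569 units (0.93 ± 0.0031). Tradd, the adaptor of TNF receptor 1, gave 6291 and 5384 (4.23 ± 0.08). Ripk1 gave 1241 and 1115 (1.92 ± 0.03), and Ripk3, the kinase of necroptosis, gave 10309 and 10298 (5.05 ± 0.08). Cflar, which encodes the caspase-8 regulator FLIP, gave 407 and 297 (0.16 ± 0.24), with 3 of its 4 probes detected. Its undetected probe reached 23.3 and 32.1 units, which were the highest signals of any undetected member probe.

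Between the arrays, no detected member moved by more than 2-fold, where 0.965% of 16060 detected genes did (155 genes; 0.635% higher on replicate 2 and 0.33% higher on replicate 1). Differences are replicate 2 minus replicate 1 on the log2 scale. Over the 39 members the median was -0.0044 and the median size 0.126, against -0.02 and 0.170 over all detected genes. Of the members, 18 were higher on replicate 2 and 21 on replicate 1, a split that became 9 and 30 when arrays were scaled to the median of all probes and 23 and 16 when scaled to the 75th percentile of detected probes. Scaling to the median of all probes moved the median difference of all detected genes by -0.23, so small differences have no fixed sign. The range ran from -0.34 for Cflar to 0.75 for Birc3. For Cflar the sign rests on the probe: its other detected probes differed by -0.10 and 0.38.

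By class, the BH3-only genes had a median difference of 0.25 with 4 of 6 higher on replicate 2, or 0.02 with 3 of 6 when scaled to the median of all probes. The IAPs had a median of -0.21 with 4 of 5 higher on replicate 1, and 4 of 5 under both other scalings, with medians of -0.17 and -0.44. Over all detected genes, 7529 of 16060 were higher on replicate 2 under the main scaling. The median of all detected genes was -0.02, and 0.02 and -0.25 under the other scalings in the same order. The pro-survival genes (median 0.00055), the effectors (-0.04) and the caspases (0.05) were split evenly. That split rests on the scaling: relative to the 75th percentile of detected probes, 4 of 4 pro-survival genes were higher on replicate 2, and relative to the median of all probes, 1 of 4 pro-survival genes, 0 of 2 effectors and 1 of 4 caspases were. With 1 array on each side these are values without a test.

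In all, 5 of 39 members had a difference above 2 of the software's own signal errors: Bik (0.49), Bcl2 (0.56), Bcl2l11 (0.69), Bbc3 (0.73) and Birc3 (0.75). All 5 were higher on replicate 2 under this scaling. The share of all detected genes above that limit was 12.0%, so 5 of 39 is near the background. Scaled to the median of all probes, 7 members passed the limit, where 24.5% of all detected genes did: Bbc3, Bcl2l11 and Birc3 were higher on replicate 2, and Xiap, Birc2, Birc6 and Cflar were higher on replicate 1. Bik and Bcl2 no longer passed. The Cflar value is that of 1 of its 3 detected probes, which differed in sign under the main scaling. Across the scaling, background and probe alternatives the difference ranged from 0.26 to 0.52 for Bik, 0.33 to 0.60 for Bcl2, 0.46 to 0.72 for Bcl2l11, 0.50 to 0.77 for Bbc3 and 0.50 to 0.79 for Birc3. None of these 5 changed direction under them. Bik, Bcl2 and Bbc3 have 1 probe each, so the probe alternative could not alter them. Taken alone, the other detected probes of Bcl2l11 and Birc3 differed by 0.39 and 0.25.

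**Figure D3:**
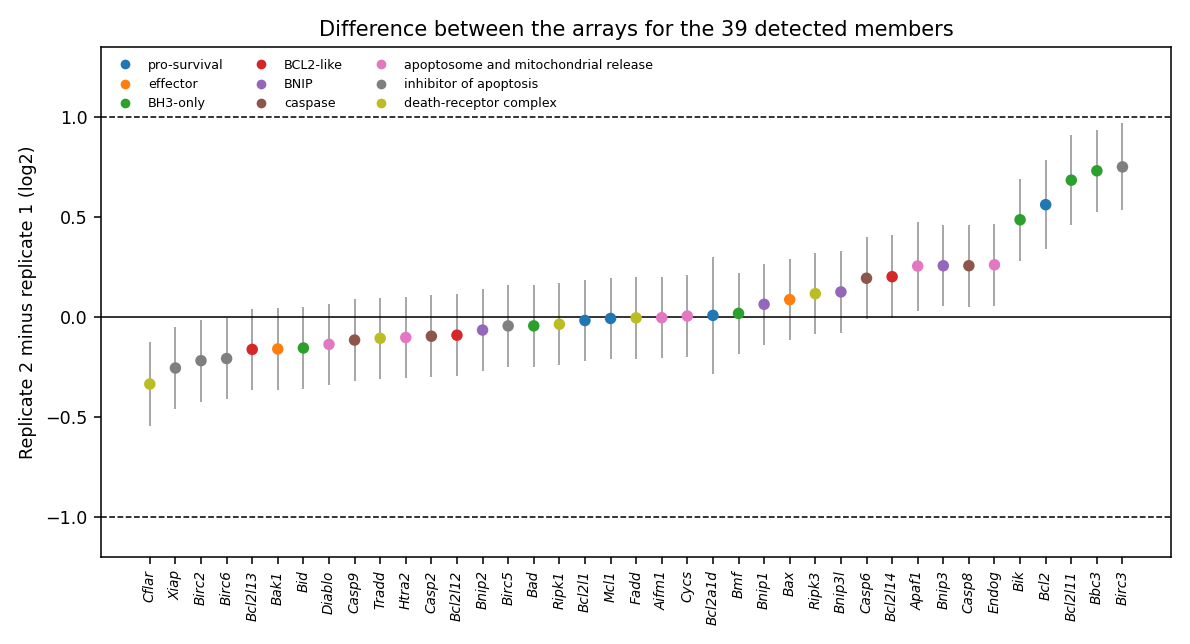
Replicate 2 minus replicate 1 (log2, y axis) of the 39 detected members in order of the value (x axis, coloured by class), with 1 software error as vertical lines and a 2-fold difference as dashed lines. Bik, Bcl2, Bcl2l11, Bbc3 and Birc3 stand at the right between 0.49 and 0.75, and no gene crosses a dashed line.

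Members were also divided by their level. The 10 members with a mean level below 1 had a median difference of 0.37 and a median size of 0.411, and 8 of them were higher on replicate 2. Among all 6793 genes below that level the median was 0.02 and the median size 0.231, and 3578 (52.7%) were higher on replicate 2. Scaled to the median of all probes, the counts were 6 of 10 members and 27.5% of these genes. The 29 members at or above it had a median of -0.04 and a median size of 0.106, and 0 of them passed 2 software errors. The part of low signal in the differences of Bcl2, Bcl2l11, Bbc3, Bik and Birc3 was not tested.

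Genes with several probes gave a second view of the same difference. Of 16 such members, 10 had every probe detected, 4 had some (Bnip2, Bnip3, Cycs, Cflar) and 2 had none (Bcl2l2, Casp4). The single member probe over 2-fold apart was the Bcl2l1 probe at base 674 of its transcript, printed above. It gave 417 units on replicate 1 and 774 on replicate 2, a difference of 1.01, or 2.01-fold. The Bcl2l1 probe at base 2311 differed by -0.02.

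Bad and Diablo showed the same arrangement with smaller differences. The Bad probe at base 573 gave 420 and 581 units, a difference of 0.58, and the one at base 1391 differed by -0.04. The Diablo probe at base 132 gave 161 and 217 units, a difference of 0.55, and the one at base 1048 differed by -0.14. For Bcl2l14 the probe at base 1497 differed by 0.20 and the one at base 1742 by -0.67. The value reported for a gene therefore depends on which of its probes stands for it.

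Across detected member probes on the same transcript, the upstream probe was relatively higher on replicate 2 in 13 of 15 pairs (86.7%) from 10 genes, with a median of 0.14. The exceptions were the Cycs pair and the pair of Bnip3l probes at bases 943 and 1044. The pairs are not independent, since the 4 Bnip3l probes were paired with each other and so recur. Of pairs over all genes, 2559 of 3566 (71.8%) went this way, with a median of 0.15. With only the widest pair of each gene, 9 of 10 members and 72.4% of 2651 genes did. The members therefore followed a direction that most genes on these arrays shared. Over all genes the median was 0.24 for pairs more than 500 bases apart and 0.08 for pairs at 500 bases or less.

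**Figure D4:**
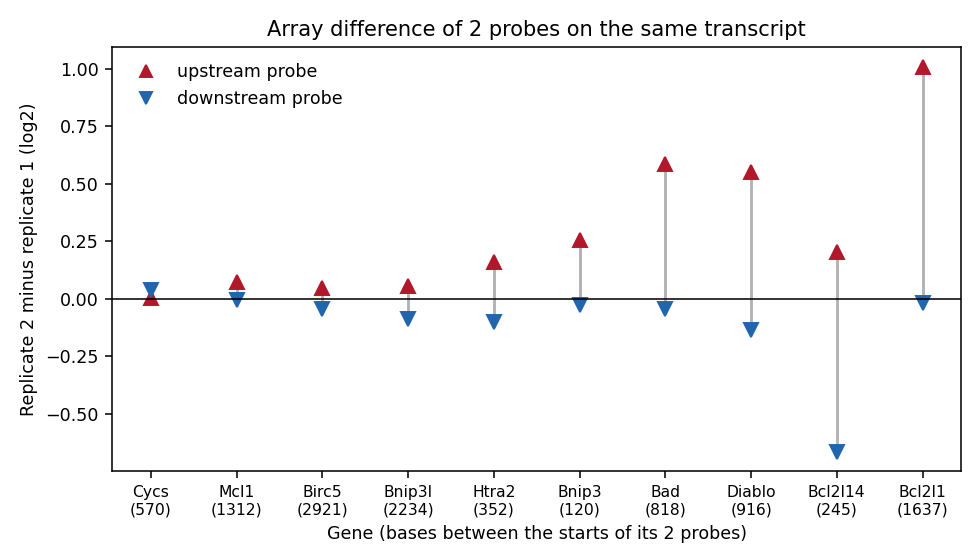
Replicate 2 minus replicate 1 (log2, y axis) of the upstream (red) and downstream (blue) probe of the pair farthest apart in each of 10 members, with the distance between the probes' starts in bases under each gene. The upstream probe is above the downstream one in 9 of 10 genes (72.4% over all 2651 genes with such a pair). The gap is 1.03 for Bcl2l1 and 0.87 for Bcl2l14.

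Base composition moved with the same difference. Detected member probes with less than 40% G and C had a median difference of -0.02 (n = 21), those with 40 to 50% had 0.10 (n = 26) and those with 50% or more had 0.49 (n = 9). Over all detected probes the medians in the same order were -0.11 (n = 7412), 0.02 (n = 10004) and 0.12 (n = 4680). Pearson's r of GC content and difference was 0.52 across 56 member probes and 0.28 across 22096 probes, which share 2 arrays and are not independent. Of the 5 genes above 2 software errors, the probes of Bcl2, Bbc3 and Bik hold 53.3%, 55.0% and 50% G and C, and those of Birc3 and Bcl2l11 hold 48.3% each. The part of base composition or position in the differences of these genes was not tested.

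Probe composition also differed between detected and undetected members. The 56 detected member probes had a median of 43.3% G and C, and the 16 undetected ones had 35.0%. Over all probes the median was 43.3% in both classes. Its part in the detection of members was not tested.

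Promoter CpG content was counted in the 250 bases before the start, as the letters CG, which read the same on both strands. RefSeq promoters were matched for 44 of 50 members, and where a gene has several starts the window with the most CG was taken. The motif occurs at least once in 92.3% of 27025 such windows and at least 10 times in 40.2%. Of 35 detected members, 27 had 10 or more (77.1%), with a median of 18 and a range of 4 to 42. Of 7 undetected members, 2 had 10 or more (28.6%), with a median of 8 and a range of 1 to 21. Over all genes the shares were 77.9% of 8088 detected and 30.2% of 7354 undetected genes, so the shares among members lay near those of all genes.

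The sequences printed above span this range. Casp1 and Casp12 have 1 CG each and Casp4 has 3, while Casp9 has 25 and Apaf1 has 42. Detected members below 10 were Bcl2a1d with 4, Casp8 with 5, Birc3 and Bcl2l14 with 6, Cflar with 7, and Bak1, Bmf and Ripk3 with 8. Undetected members with more were Hrk with 21 and Bok with 12. Bcl2a1d was counted as detected by its probe's name, although that signal cannot be assigned to this gene alone. A count of letters describes the window and is not a measure of methylation or of factor binding.

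**Figure D5:**
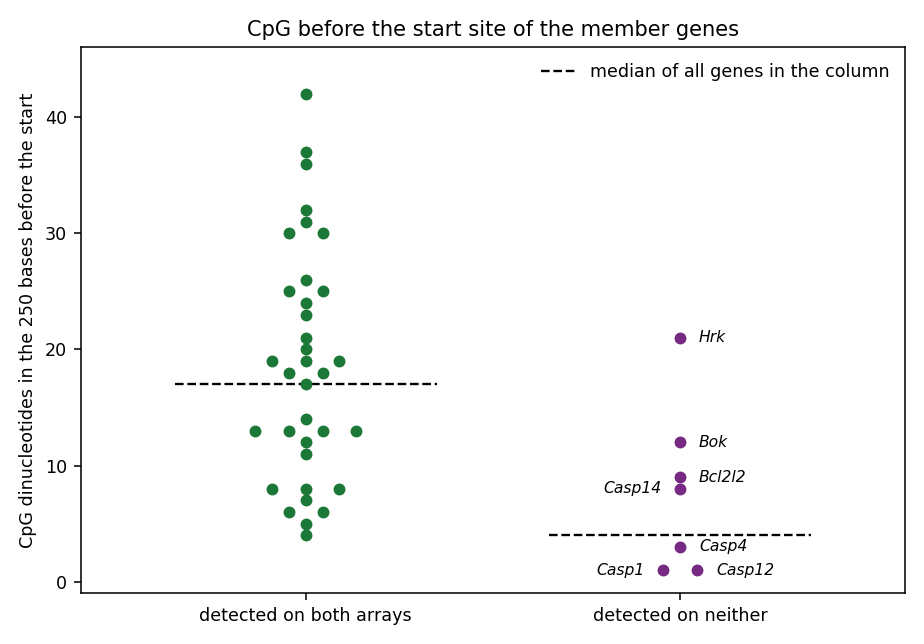
Number of CG dinucleotides in the 250 bases before the transcription start (y axis) for 35 members detected on both arrays and 7 detected on neither (x axis), 1 point per gene; dashed lines are the medians of all genes in each column, 17 and 4. Hrk, at 21, is the one undetected member above the median of detected genes.

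Other genes of the pathway were counted from lists chosen with earlier results of these data known, and 44 of 55 with a probe were detected (80%). Among protein-coding genes the share was 54.0%, with 47.6% for those with 1 probe and 66.9% for those with 2 or more. The same shares stand beside each list count below. Of the death ligands and receptors, 6 of 9 were detected, among them Fas (244 and 195 units, -0.51 ± 0.15) and the TNF receptor 1 gene Tnfrsf1a (1313 and 1023, 1.90 ± 0.17). Fasl, the ligand of Fas, and Tnfrsf10b, the TRAIL receptor, were on neither array, and Tnfrsf1b was on replicate 1 alone. Of this receptor and ligand pair, Fas was thus detected and Fasl was not.

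All 9 genes of the ubiquitin and TRAF arm of TNF receptor 1 were detected. Traf1 gave 272 and 283 units (-0.16 ± 0.12) and Traf2, which brings the cIAPs to the receptor, gave 15971 and 13336 (5.55 ± 0.10). With Tradd, Ripk1, Birc2 and Birc3, each component of this complex that was listed had a detected probe.

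Of 8 genes of necroptosis and pyroptosis, 3 were detected. These were Zbp1, a nucleic acid sensor upstream of RIPK3 (3282 and 3866 units, 3.52 ± 0.25), Pycard, the inflammasome adaptor (12136 and 11134, 5.22 ± 0.0043), and Gsdmd, the pore protein gasdermin D (373 and 376, 0.27 ± 0.09). Mlkl, the executor of necroptosis downstream of RIPK3, gave 7.49 and 12.3 and was on neither array, as were Nlrp3 and, named after their values were seen, Aim2, Il1b and Il18. Ripk3 and Zbp1 were therefore detected and Mlkl was not, and Pycard and Gsdmd were detected while Casp1 and Casp4 were not.

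All 7 caspase substrates and nucleases were detected, among them Dffa, the inhibitor of the apoptotic nuclease (556 and 500.3 units, 0.76 ± 0.02), and Dffb, the nuclease itself (279.7 and 249.99, -0.23 ± 0.03). Lmnb1, a nuclear lamina protein named here after its values were seen, was the one pathway gene over 2-fold apart. It gave 9341 and 18161 units, 1.08 higher on replicate 2. Over all detected genes, 0.965% were over 2-fold apart. All 8 mitochondrial outer membrane partners were detected, with the channels Vdac1 at 74440 and 69440 units (7.85 ± 0.01) and Vdac2 at 42662 and 32700.1 (6.91 ± 0.19).

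Of 7 p53-linked genes outside the family, 5 were detected. Mdm2, the ubiquitin ligase of p53, gave 8974 and 6684 units (4.64 ± 0.22), and Trp53inp1 gave 1966 and 1833 (2.61 ± 0.01). Cdkn1a, the cell-cycle inhibitor p21, gave 20.01 and 12.8 and Perp gave 6.75 and 9.52, and both were on neither array. Known p53 targets were thus found on both sides of the detection limit, within the BCL2 family (Bbc3 and Pmaip1) and outside it. Of 7 modulators of BCL2 proteins, 6 were detected, with Bag1 at 30991 and 27109 units (6.54 ± 0.05) and Becn1 at 2548 and 2949 (3.14 ± 0.23), while Foxo3 was on neither array.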

How the data were processed

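Total RNA of 2 untreated P5424 samples was measured on 1-colour Agilent arrays. Per the file headers, the deposited intensity values were background-subtracted and detrended within each array by Agilent Feature Extraction 10.5.1.1, the version also given in the submitters' processing notes, and were not scaled between arrays. The authors also deposited a table of log2 values, whose scale and centring are not given in the sources used here: its medians were 5.18 and 5.18, its slopes on log2 scanner signal 0.997 and 1.01, and, once sorted, its columns lay within 0.0125 of each other, as after quantile normalization. Its direction is the plain signal, and any offset stays unknown.

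Each array has 62976 spots, 59305 of them non-control. Spots with outlier marks were dropped (182 and 186, none of a member). Log2 processed signal minus the array's 75th percentile over non-control probes was used, with the percentile over detected probes as an alternative because 40.1% of probes were detected on both arrays. A probe counted as well above background where at least 50% of its spots were. The number of arrays limits precision. Signal errors are those of the software. Alternatives covered scaling, background correction (normexp, offset 50), the deposited table, the probe rule, outlier spots, the detection rule, gene naming and leaving out each replicate. The difference between arrays was tested on simulated data first. Analyses used python 3.11.15, numpy 2.4.6, pandas 2.3.3, matplotlib 3.10.9, R 4.3.3 and limma 3.58.1.

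The members and lists were chosen with earlier results of these data known. Genes named are every member and, of each pathway list, the first 2 detected and first 2 undetected genes in list order. All genes of a list's smaller class are named where it has 3 or fewer. Lmnb1, Aim2, Il1b and Il18 were named outside this rule, after their values were seen. Probe positions are on mm9 and promoters, from RefSeq, on GRCm38.p6, and positions of these builds were not combined. Gene parts under the probes were not analysed here.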

Additional observations from a re-analysis of the deposited data

How the results depend on the processing

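The count of 39 detected members stayed between 35 (every probe required) and 41 (positive and significant signal) across detection rules, and was 38 with signals above the highest negative control spot, which dropped Bcl2a1d. It was 41 when every listed RefSeq accession named a probe, an alternative added after seeing the data, which added Bcl2a1a and Bcl2a1b through the shared probe. Requiring every probe left 2 of 4 BNIP genes, and the weaker signal criterion raised the necroptosis and pyroptosis genes from 3 to 5. The median member level of 3.07 is tied to its scale: it was -0.45 relative to the 75th percentile of detected probes, 7.06 relative to the median of all probes, 2.67 with normexp and 2.63 with the mean over detected probes. Leaving out each replicate gave 2.94 to 3.05. The median size of the differences between arrays, 0.126, became 0.272 when scaled to the median, which moved 38 of the 39 gene differences; 6 moved with the mean over probes and 1 with normexp. Members above 2 software errors numbered 5, and 7 when scaled to the median, a count added after seeing the data, as was the split of low-level members by scaling. No detected member passed 2-fold under any of the alternatives run. No paired analysis was possible because there is 1 group. Depth does not apply to arrays, and undetected members have only an upper bound.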

Other observations

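Relatives of the members that the choice of genes left out were looked up after the member values were seen. Casp8ap2, the caspase-8 associated protein that acts in histone gene expression, gave 4367 and 3789 intensity units (3.71 ± 0.06, SD, n = 2). Among the Naip genes, which carry the same BIR domain as the inhibitors of apoptosis and sense bacterial proteins, Naip5 gave 32791 and 27578 units (6.59 ± 0.09) and Naip2 gave 267 and 199 (-0.43 ± 0.21). Naip1, Naip6 and Naip7 were detected on neither array. The Naip genes form a cluster of near copies, so the signal of one probe may include RNA of another copy. Bcl2a1c, Birc7 and Bnipl were also detected on neither array.

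Some member probes lie close to a probe of a neighbouring gene on the opposite strand. The Endog probe is 532 bases from that of D2Wsu81e, which was detected at 12538 and 9920.2 units. A Htra2 probe is 91 bases from that of Loxl3 and the Diablo probe 364 bases from that of B3gnt4, and neither neighbour was detected.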
